A study of Caenorhabditis elegans with 18 samples.

Results

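The genes described here encode the HSP70, HSP90 and HSP60 chaperones of the nematode Caenorhabditis elegans, which fold newly made proteins and refold those damaged by heat. They were fixed by name as 10 genes: the inducible cytosolic HSP70 genes hsp-70, F44E5.4 and F44E5.5, the constitutive cytosolic genes hsp-1, hsp-110 and hsp-90, the endoplasmic reticulum (ER) genes hsp-3 and hsp-4, and the mitochondrial genes hsp-6 and hsp-60. Of these, 9 could be matched to a row of the count table, which held 39798 named genes, and all 9 passed the filter on low counts. The accession that the annotation gives for hsp-6, the mitochondrial HSP70, matched no row, so hsp-6 was not analysed here and hsp-60 alone stands for the mitochondrion.

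Chaperones of the HSP70 family bind exposed hydrophobic stretches and release them in a cycle driven by ATP, with J-domain proteins as partners and HSP110 proteins as nucleotide exchange factors. HSP90 acts later, on proteins that are partly folded. Heat shock factor HSF-1 activates the cytosolic genes when proteins unfold in the cytosol, whereas unfolded proteins in the ER or the mitochondrion act through separate stress responses, for which hsp-4 and hsp-60 are widely used reporters in worms.

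RNA was sequenced from whole day 1 adults, fed on E. coli OP50-1, of the wild type N2 Bristol, the pqm-1(ok485) strain RB711 and the daf-16(mu86) strain CF1038. Both mutated genes encode transcription factors of stress and lifespan control. Worms were kept at 20 °C, or exposed to 35 °C in a water bath for 1 h and collected after 2 h of recovery at 20 °C. Each of the 6 groups has 3 numbered samples, and each allele is represented by 1 strain. The labels do not say that samples of a group came from separate cultures, so p-values measure only the spread between these samples, which may be technical.

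The comparisons use the 12 libraries named replicate 2 and 3, because the first value column of the table carries a sample name but holds transcript lengths, and the header may therefore stand 1 column off for the others. Either way of reading the header leaves these 12 in the group their name gives, with total counts over the rows used from 18650313 to 33399359. The 5 libraries named replicate 1 went against their labels: hsp-70 stood at 32.8 and 89.8 CPM (counts scaled to the library total) in those labelled 20 °C for N2 and pqm-1, and between 0.821 and 1.02 CPM in the 3 labelled 35 °C. As a check of heat, hsp-16.2, which encodes a small heat shock protein, was at most 0.42 CPM in the 20 °C libraries used and at least 263.4 CPM in the heated ones. The gene pqm-1 stood at 12.3 and 9.77 CPM in the pqm-1 strain at 20 °C against 25.3 and 24.1 CPM in N2 (log2 fold change -1.16 ± 0.19, SE, adjusted p 0.0586). The daf-16 row used, its transcript with the highest mean, did not separate the daf-16 strain from N2 (0.14 ± 0.10, adjusted p 0.509). The total over daf-16 transcripts was not compared. Marker genes of intestine, body wall muscle, neurons, hypodermis, germline, oocytes and sperm were detected in every library wherever the gene had a row.

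Heat moved 8 of the 9 measured genes past the threshold in each strain: 7 rose and hsp-60 fell, while hsp-3 did not pass. The threshold was a Benjamini-Hochberg adjusted p under 0.05 over the 14278 genes that entered the edgeR quasi-likelihood fit. Among all these genes, heat was called for 34.7% in N2, for 25.2% in pqm-1 and for 33.1% in daf-16. The share called higher was 16.8% for N2, 12.5% for pqm-1 and 16.5% for daf-16, and the share called lower 17.9%, 12.6% and 16.5%. The median log2 fold change of the 9 genes was 0.89 for N2, 0.77 for pqm-1 and 1.09 for daf-16, against 0.02, 0.01 and 0.03 over all genes tested. F44E5.4 and F44E5.5 hold the same counts, so the 7 rises are 6 separate measurements. In whole animals, a change in the cells that make up the body and a change per cell cannot be told apart.

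Among the inducible cytosolic genes, hsp-70 went from the edge of detection to more than 40 CPM. At 20 °C it stood at 0.821 and 0.959 CPM in N2, 0.787 and 1.2 CPM in pqm-1, and 1.03 and 1.03 CPM in daf-16, from 17 to 26 reads a library. After heat it stood at 144.7 and 41.7 CPM in N2, 106.9 and 110.9 CPM in pqm-1, and 334.2 and 95.7 CPM in daf-16. Every heated library lay above every unheated one, and the 2 heated replicates lay 3.47-fold apart in N2 and 3.49-fold apart in daf-16 but 1.04-fold apart in pqm-1. The log2 fold change was 6.59 ± 0.82 in N2 (SE, n = 2 libraries a group; adjusted p 0.000119), 6.71 ± 0.81 in pqm-1 (0.000114) and 7.69 ± 0.81 in daf-16 (2.76e-05).

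The neighbouring genes F44E5.4 and F44E5.5, further inducible HSP70 genes that lie next to each other on opposite strands, cannot be separated here. Their rows hold equal counts in all 12 libraries, and each row has a length of 3876 bases where the annotated coding length of either gene is 1938 bases. Each row thus appears to count the pair. At 20 °C the row stood at 7.34 and 8.76 CPM in N2, 11.0 and 13.8 CPM in pqm-1, and 14.5 and 14.4 CPM in daf-16. After heat it stood at 285.9 and 69.0 CPM in N2, 312.9 and 277.3 CPM in pqm-1, and 1373 and 280.2 CPM in daf-16. The heated libraries again lay above all unheated ones, with replicates 4.14-fold apart in N2 and 4.9-fold apart in daf-16. The pair rose by a log2 fold change of 4.35 ± 0.75 in N2 (adjusted p 0.000971), 4.51 ± 0.73 in pqm-1 (0.000827) and 5.83 ± 0.77 in daf-16 (0.000133).

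**Figure D1:**
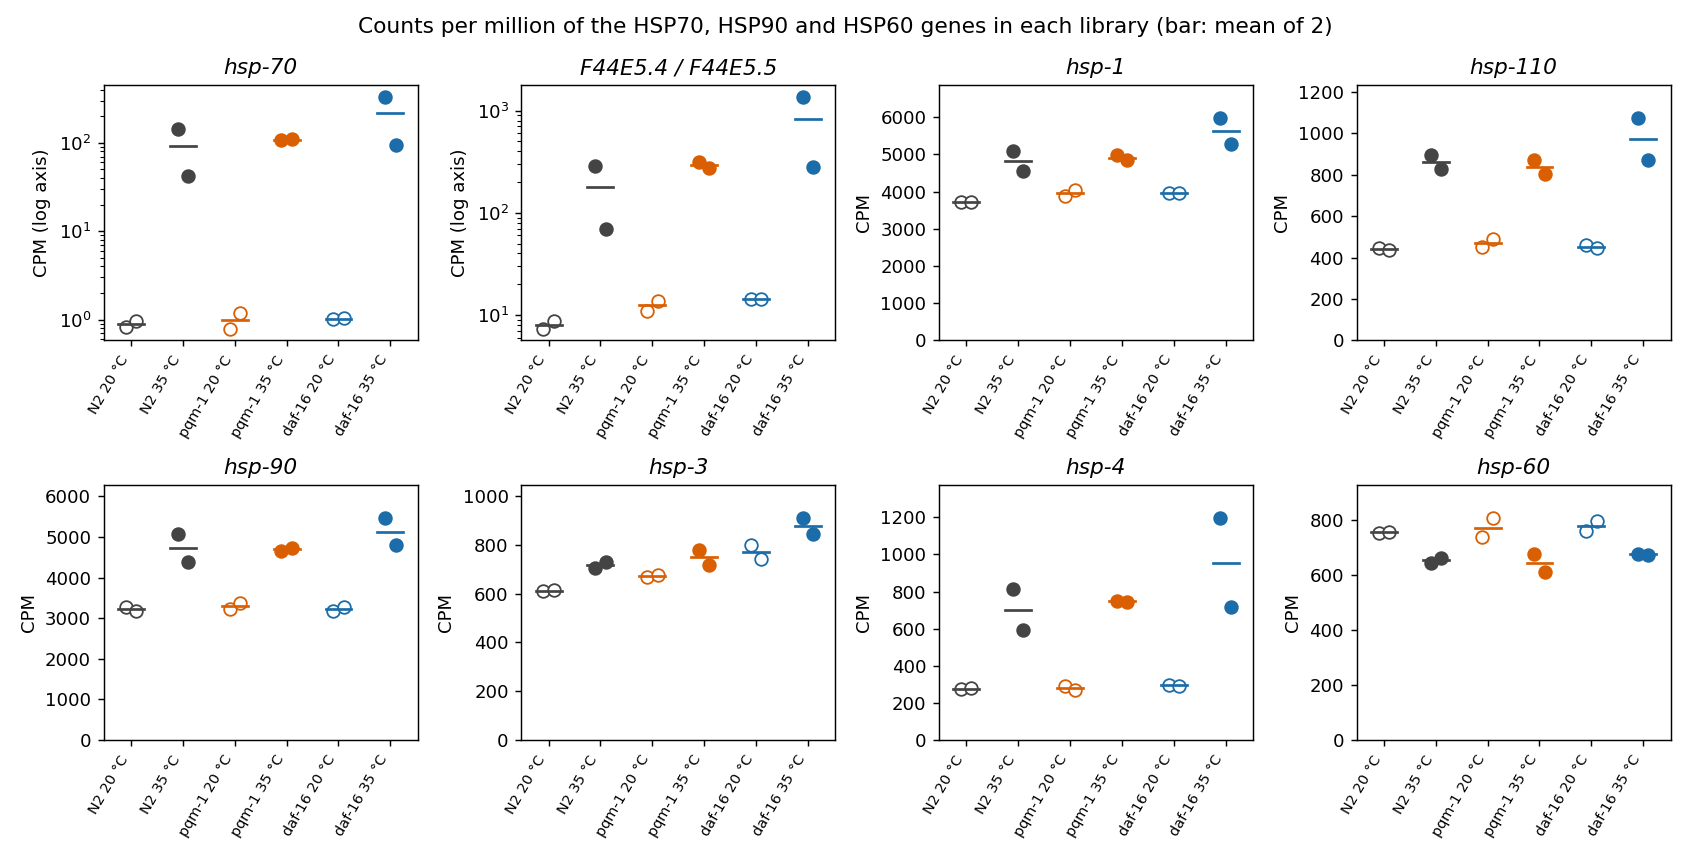
CPM of each gene (vertical axis, logarithmic for hsp-70 and the F44E5.4/F44E5.5 pair and from 0 for the rest) in the 6 groups of strain and temperature, with a point for each library and a bar at the mean of 2, open for 20 °C and filled for 35 °C. The heated N2 and daf-16 replicates of hsp-70 lie 3.47-fold and 3.49-fold apart, while those of hsp-60 stay within 1.03-fold and 1.00-fold.

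The constitutive cytosolic genes changed far less and from a high level. The main cytosolic HSC70 gene, hsp-1, stood at 3730 and 3732 CPM in N2 at 20 °C and at 5079 and 4544 CPM after heat. In pqm-1 it went from 3877 and 4033 to 4988 and 4844 CPM, and in daf-16 from 3955 and 3951 to 5971 and 5286 CPM. The heated and unheated libraries did not overlap. Its log2 fold change was 0.28 ± 0.08 in N2 (adjusted p 0.0137), 0.25 ± 0.08 in pqm-1 (0.0304) and 0.50 ± 0.08 in daf-16 (0.000414). The calls in N2 and pqm-1 were lost without 1 library: in N2 without either 20 °C replicate or heated replicate 2 (adjusted p 0.0548, 0.089 and 0.0802), and in pqm-1 without N2 20 °C replicate 2 or any pqm-1 library (0.0574 to 0.157).

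The HSP90 gene hsp-90 stood at 3286 and 3175 CPM in N2 at 20 °C and at 5077 and 4392 CPM after heat. In pqm-1 it went from 3228 and 3377 to 4659 and 4733 CPM, and in daf-16 from 3172 and 3268 to 5465 and 4796 CPM. All 6 heated libraries lay above all 6 unheated ones. Its log2 rise was 0.46 ± 0.08 in N2 (adjusted p 0.00137), 0.45 ± 0.08 in pqm-1 (0.00219) and 0.66 ± 0.08 in daf-16 (0.000107). Its exons overlap those of C47E8.4 on the opposite strand, and the counting is not stated to use strand. C47E8.4 stood at 33.6 to 49.9 CPM over the 12 libraries. Its log2 fold change with heat was -0.03 in N2, which did not pass, and 0.26 in pqm-1 and 0.33 in daf-16, both called higher. The part of the overlap in the hsp-90 counts was not tested.

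The HSP110 gene hsp-110, an exchange factor for HSP70, rose most of the constitutive group, by 0.89 ± 0.10 in N2 (adjusted p 6.45e-05), 0.77 ± 0.10 in pqm-1 (0.000189) and 1.09 ± 0.10 in daf-16 (1.17e-05). It stood at 445.5 and 434.7 CPM in N2 at 20 °C and at 896.6 and 828.8 CPM after heat. In pqm-1 it went from 449.1 and 492.0 to 873.8 and 801.5 CPM, and in daf-16 from 459.0 and 445.7 to 1073 and 869.9 CPM. These ranges are apart too.

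The ER pair split. Both hsp-3 and hsp-4 encode BiP, the HSP70 of the ER lumen, and hsp-4 rose while hsp-3 did not pass the test in any strain. The gene hsp-4 stood at 273.1 and 279.8 CPM in N2 at 20 °C and at 813.0 and 593.8 CPM after heat. In pqm-1 it went from 292.8 and 270.7 to 750.8 and 745.3 CPM, and in daf-16 from 296.3 and 292.4 to 1196 and 714.5 CPM. The log2 fold change was 1.26 ± 0.19 in N2 (adjusted p 0.000464), 1.35 ± 0.19 in pqm-1 (0.000352) and 1.69 ± 0.20 in daf-16 (5.19e-05).

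For hsp-3 the values were 609.7 and 614.6 CPM in N2 at 20 °C against 704.2 and 729.7 CPM after heat, 668.3 and 674.5 against 779.2 and 717.2 CPM in pqm-1, and 799.7 and 743.0 against 909.8 and 843.4 CPM in daf-16. The heated libraries lay above the unheated ones within each strain. The log2 fold changes were 0.14 ± 0.08, 0.09 ± 0.08 and 0.17 ± 0.08 (adjusted p 0.167, 0.418 and 0.107), with 95% intervals of -0.02 to 0.31 in N2, -0.07 to 0.26 in pqm-1 and 0.01 to 0.34 in daf-16, not adjusted for multiple tests. Scaled to library size without composition factors, hsp-3 passed in N2 (0.23, adjusted p 0.0226). For both ER genes the matched row is the shorter annotated isoform, with 978 of 1986 coding bases for hsp-3 and 0.494 of the longest coding length for hsp-4, and the longer isoform of each matched no row.

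The mitochondrial chaperonin gene hsp-60 fell. It stood at 752.6 and 756.2 CPM in N2 at 20 °C and at 644.2 and 663.4 CPM after heat, with 737.6 and 806.9 against 677.5 and 610.4 CPM in pqm-1, and 760.7 and 795.1 against 675.8 and 673.7 CPM in daf-16. Every heated library lay below every unheated one. Its log2 fold change was -0.29 ± 0.08 in N2 (adjusted p 0.013), -0.32 ± 0.08 in pqm-1 (0.00964) and -0.22 ± 0.08 in daf-16 (0.0485). The gene has 3 transcripts in the table, and the longest, which also had the highest mean, is the one given. The last call is marginal and was lost with a replicate block (-0.22, adjusted p 0.0646), with only the daf-16 groups in the fit (0.108), with a mean count of at least 10 as the filter (0.0527) and without any 1 of 10 libraries (0.0514 to 0.233). In N2 the call was lost without 20 °C replicate 2 (0.0877) or heated replicate 2 (0.109), and in pqm-1 without 20 °C replicate 3 (0.0923) or heated replicate 3 (0.104).

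**Figure D2:**
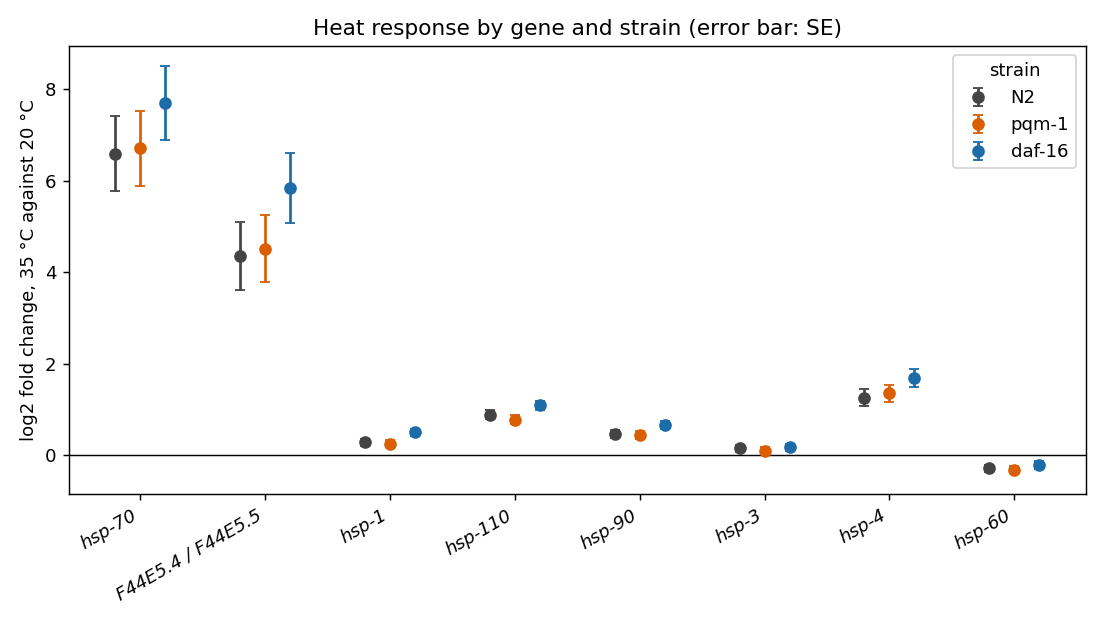
Log2 fold change of each gene, 35 °C against 20 °C (vertical axis), in the 3 strains, with error bars of 1 SE from the edgeR fit. The inducible genes lie between 4.35 and 7.69, hsp-4 between 1.26 and 1.69, hsp-110 between 0.77 and 1.09, and hsp-60 between -0.32 and -0.22.

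Summed CPM of tissue markers also moved with heat. The 2 muscle markers with a row went from 4130 to 5900 CPM at 20 °C to 6230 to 7350 CPM after heat, the 3 sperm markers from 222 to 257 to 149 to 195 CPM, and the 2 neuron markers from 35.3 to 42.8 to 53.2 to 62.6 CPM. Over all strains together, the range was 7190 to 10700 against 4820 to 7250 CPM for intestine, 1810 to 2350 against 1580 to 1930 for hypodermis, 1140 to 1300 against 976 to 1180 for germline and 929 to 1590 against 655 to 1100 for oocytes. Within a strain, the heated sums of these 4 tissues lay below the unheated ones, except for oocytes in daf-16, which overlapped (929 and 1060 against 655 and 1100 CPM). A sum can hide single markers. Of the 3 hypodermis markers, 2 were called higher and 1 lower in N2 (log2 fold changes from -0.537 to 0.535), and none in pqm-1 or daf-16. The intestine sum is nearly all vit-2, at 10593 and 8045 CPM in N2 at 20 °C against 41.2 and 46.7 CPM for ges-1. The oocyte sum stood at 1590 and 1310 CPM in N2 at 20 °C and at 805 and 846 CPM after heat. All 3 oocyte markers were called lower in N2, namely rme-2 (-0.97), cbd-1 (-0.89) and oma-1 (-0.77), as were rme-2 and oma-1 in pqm-1 (-0.59 and -0.45) and oma-1 in daf-16 (-0.38). Of the intestine markers, the yolk protein gene vit-2 was called lower in N2 (-0.87) and pqm-1 (-0.76), and ges-1 in daf-16 (-0.92). The other 2 did not pass in any strain, and the 3 ranged from -0.87 to 0.13 in N2. The intestine marker elt-2 stood at 29.7 and 30.1 CPM in N2 at 20 °C and at 27.2 and 41.5 CPM after heat. Each of the called oocyte and intestine falls named here was larger than the log2 fall of hsp-60 in the same strain. They were named because they passed, and other markers changed less. In N2 the germline markers ranged from -0.31 to -0.01 and the sperm markers from -0.56 to 0.04. None of the markers with a row was at 0 in any library. Their part in the small changes of hsp-1, hsp-90 and hsp-60 was not tested.

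Levels of different genes were compared as CPM per 1000 coding bases of the row used. At 20 °C the order was hsp-1 (1940 to 2097 over the 6 libraries), hsp-90 (1504 to 1601), hsp-3 (623 to 818), hsp-60 (432 to 473), hsp-4 (278 to 304), hsp-110 (186 to 211), the F44E5.4 row (1.89 to 3.73) and hsp-70 (0.407 to 0.62), and no neighbouring ranges overlapped. After heat hsp-1 stood at 2363 to 3105 and hsp-90 at 2083 to 2591, hsp-3 at 720 to 930 and hsp-4 at 609 to 1227, and hsp-60 at 358 to 397 and hsp-110 at 344 to 460, so that the members of each of these pairs overlapped. The F44E5.4 row reached 17.8 to 354.2 and hsp-70 21.6 to 173.0. Even then hsp-70 was 0.914 to 5.57% of hsp-1 on this scale, against 0.0202 to 0.0296% at 20 °C. Counted once for the F44E5.4 pair and without hsp-6, the genes held 0.9 to 0.967% of the counts at 20 °C and 1.19 to 1.7% after heat. These shares are of the summed rows used for named genes, without unmatched rows and other transcripts, and hsp-3 and hsp-4 entered with their shorter isoform.

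Ratios of 2 genes within a library do not depend on how libraries are scaled, and 5 were compared over the 3 strains. The hsp-70 to hsp-1 ratio rose 88.8-fold with heat (mean log2 change 6.47), and the change was 6.05 for N2, 6.46 for pqm-1 and 6.90 for daf-16. The hsp-4 to hsp-3 ratio rose 2.42-fold (1.27), most in daf-16 (1.47). The hsp-110 to hsp-1 ratio rose by 0.57 and the hsp-90 to hsp-1 ratio by 0.18. In contrast the F44E5.4 to hsp-70 ratio fell by 2.16. Each of the 5 ratios gave p = 0.00926 in a two-sided exact permutation test with heat labels permuted within strain, both before and after adjustment over the 5, which is the smallest p that the arrangements allow.

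**Figure D3:**
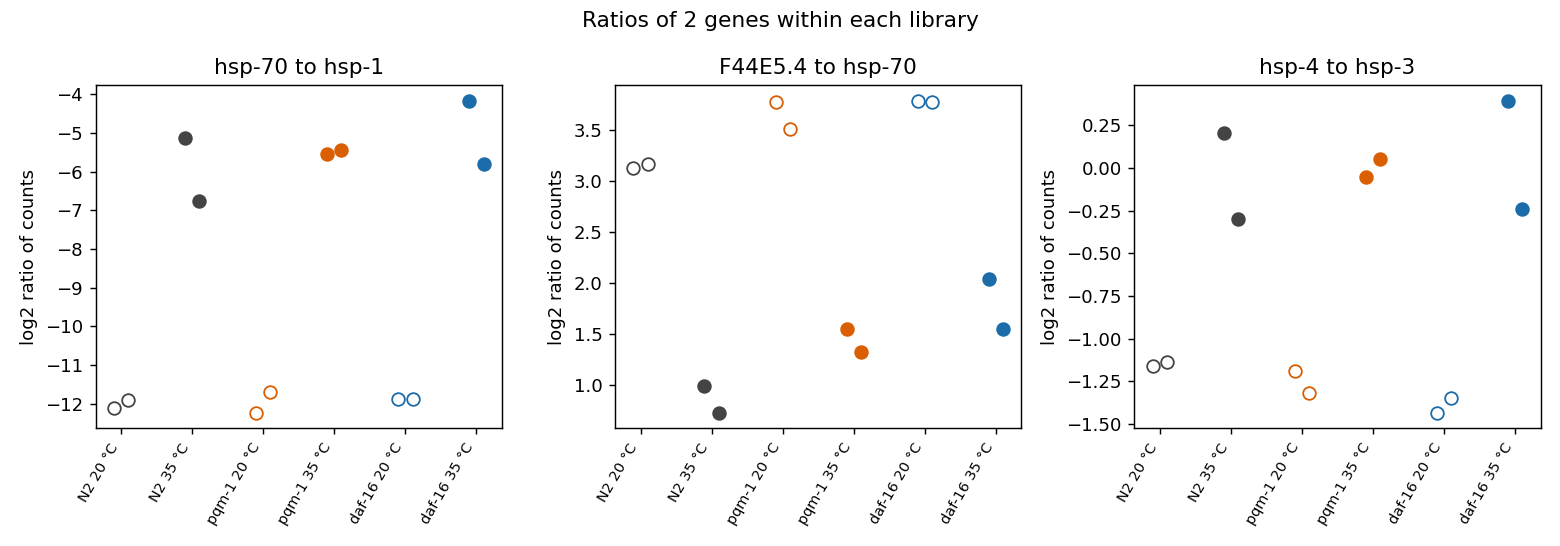
Log2 ratio of the counts of 2 genes in each library (vertical axis, a separate scale in each panel) for the 6 groups, open for 20 °C and filled for 35 °C. Heated libraries lie above unheated ones for hsp-70 to hsp-1 and hsp-4 to hsp-3 and below them for F44E5.4 to hsp-70, where the means fall from 3.14 to 0.85 in N2, 3.64 to 1.44 in pqm-1 and 3.78 to 1.79 in daf-16.

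In the pqm-1 strain none of the 9 genes differed from N2 past the threshold, at 20 °C or after heat, where 0.063% and 0.28% of all genes were called (0.056% higher and 0.007% lower at 20 °C, 0.224% higher and 0.056% lower after heat). None reached an unadjusted p under 0.05 either, and DESeq2 also called 0 at both temperatures. The data bound some genes tightly and others hardly at all. After heat the log2 difference was 0.06 for hsp-1 (95% interval -0.11 to 0.22), 0.02 for hsp-90 (-0.17 to 0.20), 0.12 for hsp-4 (-0.29 to 0.53) and 0.00 for hsp-60 (-0.17 to 0.17). For hsp-70 it was 0.27 (-0.84 to 1.39) and for the F44E5.4 row 0.78 (-0.55 to 2.12). At 20 °C the F44E5.4 row was higher in both pqm-1 libraries than in both N2 libraries, with a log2 difference of 0.63 (-1.03 to 2.28, adjusted p 0.828). That interval also carries the spread of the heated replicates, because the dispersion of a gene was fitted over all groups together.

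In the daf-16 strain after heat, 1 of the 9 genes was called higher than in N2 and 0 lower. Among all genes, 0.532% were called higher, 0.56% lower and 1.09% in either direction. The median log2 difference was 0.37 for the 9 genes, with both rows of the F44E5.4 pair included, and 0.01 over all genes tested. An unadjusted p under 0.05 was reached by 8 of the 9, again with both rows of the F44E5.4 pair, against 16.9% of all genes. The 9 values come from the same libraries and are not independent. The largest log2 differences were 2.33 ± 0.64 for the F44E5.4 row (adjusted p 0.108) and 1.31 ± 0.51 for hsp-70 (0.227), followed by hsp-4 (0.53 ± 0.19, 0.192), hsp-3 (0.37 ± 0.08, 0.0428) and hsp-1 (0.31 ± 0.08, 0.0851). The replicates of hsp-70, the F44E5.4 row, hsp-110, hsp-90 and hsp-4 overlapped between the strains, and those of hsp-1, hsp-3 and hsp-60 did not. The share of all genes without overlap was not computed. With 2 libraries against 2, full separation gives p = 0.333 in an exact permutation test, so it does not show a strain difference. The outcome rests on single libraries. Without daf-16 heated replicate 3, the log2 difference was 3.06 for the F44E5.4 row and 1.96 for hsp-70. Without N2 heated replicate 2, it was 3.63 for the F44E5.4 row. Either fit leaves 1 library in a group.

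At 20 °C the daf-16 strain differed from N2 past the threshold in hsp-3 alone of the 9 (0.34 ± 0.08, adjusted p 0.0442), where 1.68% of all genes were called higher, 0.805% lower and 2.49% in either direction. Both hsp-3 values of daf-16, 799.7 and 743.0 CPM, lay above the N2 values of 609.7 and 614.6 CPM, with pqm-1 between them at 668.3 and 674.5 CPM. The call is close to the threshold at both temperatures. At 20 °C it was lost without any 1 of 8 libraries (adjusted p 0.0669 to 0.376), and after heat without any 1 of 11 (0.0611 to 0.185), while the difference stayed between 0.30 and 0.42 in all these fits. For the other genes at 20 °C the differences lay between 0.00 for hsp-90 and 0.85 for the F44E5.4 row (95% interval -0.79 to 2.49, adjusted p 0.578). Here too the interval carries the spread of the heated replicates. Both daf-16 libraries of the F44E5.4 row, at 14.5 and 14.4 CPM, lay above those of N2, at 7.34 and 8.76 CPM. Which genes pass depends on the fit: with only the unheated N2 and daf-16 libraries, the F44E5.4 pair was called (0.85, adjusted p 0.0306) and hsp-3 was not (0.069).

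Whether the heat response itself differed between strains was tested as an interaction, and no gene passed, among the 9 or among all genes tested (0% called). For daf-16 minus N2 the median difference was 0.22 for the 9 genes, with both rows of the F44E5.4 pair included, and 0.01 over all genes tested. The 9 values come from the same libraries. The difference was 1.48 for the F44E5.4 row (95% interval -0.64 to 3.60, adjusted p 0.498), a ratio of 2.15 between the fold changes for hsp-70 (log2 interval -2.21 to 4.42, 0.777), 0.43 for hsp-4 (-0.16 to 1.01, 0.471) and 0.22 for hsp-1 (-0.02 to 0.45, 0.368). For pqm-1 minus N2 it was 0.15 for the F44E5.4 row (-1.98 to 2.28, adjusted p 0.975), 0.12 for hsp-70 (-3.21 to 3.44, 0.989) and -0.03 for hsp-1 (-0.26 to 0.20, 0.954). At an unadjusted p under 0.05 there were 0 of 9 for either mutant against N2 and 2 of 9, hsp-1 and hsp-110, for pqm-1 minus daf-16. DESeq2 called 0 of 9 in all 3 interactions. The N2 libraries serve as controls for both mutants, and the intervals of the inducible genes do not bar differences of several fold.

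Genes that work with these chaperones were examined as lists. The shares of all genes called higher, for comparison, were 16.8%, 12.5% and 16.5% in the order N2, pqm-1, daf-16, and those called lower 17.9%, 12.6% and 16.5%. Of 6 other HSP70 and HSP90 family genes, 2 were called higher in each strain, and 1 lower in daf-16, with a median log2 fold change of 0.13 in N2. The risers were T14G8.3, an HSP70 family gene (0.69, 0.40 and 0.55 in N2, pqm-1 and daf-16), and enpl-1, the ER HSP90 (0.48, 0.31 and 0.39). Of 17 co-chaperones with HSF-1, 12 had a row, and, with none lower, the number called higher was 6 for N2, 5 for pqm-1 and 6 for daf-16, or 50.0, 41.7 and 50.0%. Among them unc-45, a myosin chaperone that works with HSP90, rose by 0.77, 0.52 and 0.68, bag-1, an HSP70 exchange factor, by 0.63, 0.75 and 0.70, and ahsa-1, an HSP90 activator, by 0.47, 0.51 and 0.60. The median over this list was 0.29 for N2, 0.18 for pqm-1 and 0.36 for daf-16. For hsf-1 itself, named after its values were seen, the log2 fold change was -0.23 in N2 (adjusted p 0.0858), -0.09 in pqm-1 and -0.06 in daf-16.

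The ER list held more rises than falls and the mitochondrial list more falls than rises. Of 18 genes of ER stress and folding, 12 were called higher and 0 lower in N2, 7 and 1 in pqm-1, and 12 and 1 in daf-16, so that 66.7, 38.9 and 66.7% were called higher, with medians of 0.27, 0.19 and 0.27. The largest rises in N2 were those of dnj-27, an ER J-domain protein (0.70), pek-1, the ER stress kinase PERK (0.64), and atf-6, an ER stress transcription factor (0.60). The rise of pek-1 was 1.03 in daf-16, and its value of 0.41 in pqm-1 did not pass (adjusted p 0.133). Of 12 genes of mitochondrial stress and import, 11 had a row, and 1 was called higher and 5 lower in N2, 1 and 4 in pqm-1, and 2 and 3 in daf-16. The shares called higher, 9.09, 9.09 and 18.2%, were near or below those of all genes, and the shares called lower were 45.5, 36.4 and 27.3%. The median was -0.24 for N2, -0.12 for pqm-1 and -0.11 for daf-16. The gene C34C12.8, which encodes a GrpE-like exchange factor of mitochondrial HSP70, fell by 0.66 for N2, 0.52 for pqm-1 and 0.37 for daf-16, and atfs-1, the transcription factor of the mitochondrial stress response, fell by 0.57, 0.37 and 0.23. The gene that rose in all 3 strains was dve-1, a homeodomain factor of the same response (0.93, 0.49 and 0.68). The difference between the lists was not tested.

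**Figure D4:**
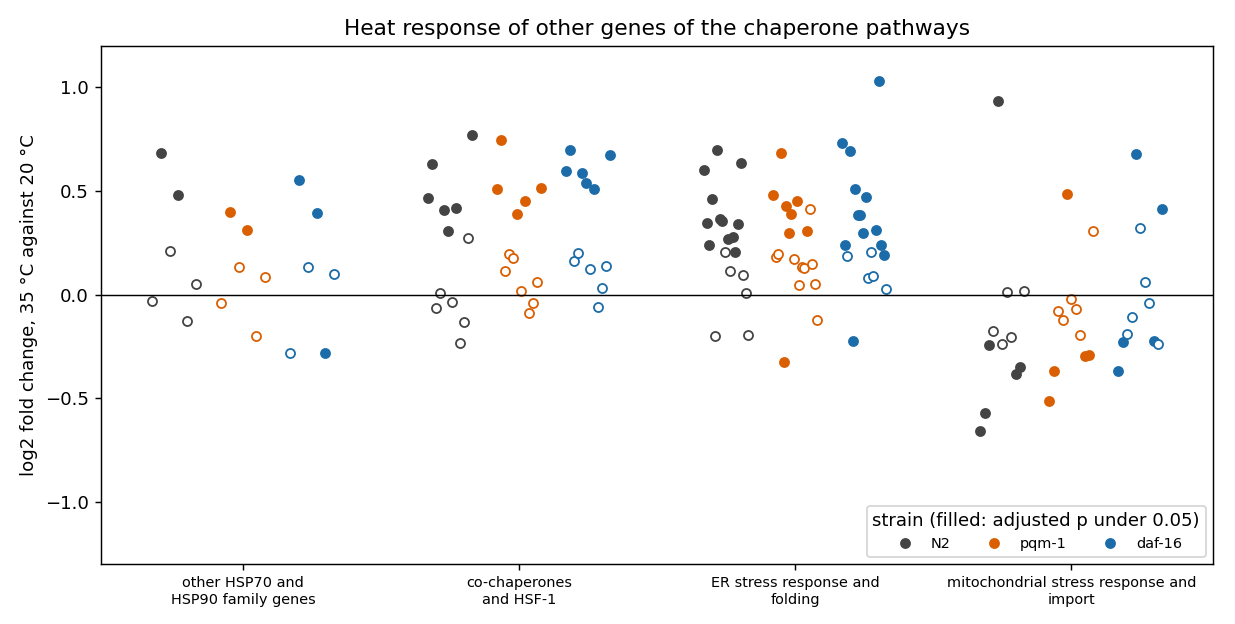
Log2 fold change with heat (vertical axis) of the genes in 4 lists around the chaperones, a point for each gene and strain, filled where the adjusted p was under 0.05. In N2 the ER list has 12 filled points above 0 and 0 below, and the mitochondrial list 1 above and 5 below.

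Among all other genes tested, those whose log2 CPM over the 12 libraries was most like that of hsp-70 were nhr-247, a nuclear hormone receptor gene (Pearson r = 0.998 over 12 libraries), F37C4.5 (0.994) and vsra-1 (0.992). For hsp-4 they were clp-4, a calpain gene (0.995), sqst-1, an autophagy receptor gene (0.994), and again nhr-247 (0.993). For hsp-1 they were sto-1, a stomatin gene (0.987), Y47G6A.18 (0.982) and H06I04.6 (0.98). The points share libraries, strain and temperature, so any gene that moved strongly with heat scores high. With heat in N2, the log2 fold change of nhr-247 was 7.52 and that of sqst-1 2.08. Exons of F37C4.5 and Y47G6A.18 overlap a gene on the opposite strand, and those of H06I04.6 a noncoding gene on the same strand, which leaves their counts uncertain.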

How the data were processed

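The members and the gene lists were chosen with earlier results of these data known. The authors deposited estimated counts per RefSeq transcript, which need not be whole, in 50755 rows and 18 columns. The aligner, counter, genome build and strand setting are not given in the sources used here. One deposited column, named for a sample, holds other values, transcript lengths in bases. Columns were matched to samples by name, and 12 libraries were used. Accessions were matched to gene names in the RefSeq table of WBcel235 (45910 rows, 39798 genes), and the 4845 unmatched rows, 23.4 to 24.3% of counts, were left out. The transcript with the highest mean stood for a gene, rounded to whole counts.

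Tests used edgeR 4.0.16 in R 4.3.3 (TMM, filterByExpr, 1 dispersion fit over 6 groups, quasi-likelihood F-test), checked on simulated counts. SEs were taken from the F statistic, and intervals carry 95% coverage. CPM were counts over the library's total, summed over the rows used for named genes. Ratios used a pseudocount of 0.5. Alternatives were DESeq2 1.42.0, other scalings and filters, only the groups compared, a replicate block, all 17 count columns by name, the longest transcript, unmatched rows kept, and each library left out. For the lists, at most 3 called genes each, by size of change in N2, were named. The named promoter motifs were not searched and no sequence is shown. Figures were drawn with matplotlib 3.10.9.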

Additional observations from a re-analysis of the deposited data

Results flagged for a closer look

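The libraries named replicate 1 were outside the comparisons, and in those labelled 20 °C several genes stood above every 20 °C library used. For hsp-70 the values were 32.85 CPM in N2 replicate 1 and 89.84 CPM in pqm-1 replicate 1, against at most 1.2 CPM. The F44E5.4 row, and with the same counts F44E5.5, stood at 69.65 and 195.2 CPM in these libraries, against at most 14.47 CPM. Smaller gaps were seen for hsp-1, at 4688 and 4991 CPM against at most 4033 CPM, and for hsp-90, at 4252 and 4964 CPM against at most 3377 CPM. For hsp-110 the values were 819.0 and 834.8 CPM against at most 492.0 CPM, and for hsp-4 they were 493.8 and 731.3 CPM against at most 296.3 CPM. In replicate 1 of the 3 groups named for 35 °C, the level of hsp-4 was 269.4 to 275.2 CPM, inside or just below the 20 °C range.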

How the results depend on the processing

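Of 1980 refitted values of the 9 genes, 1876 kept their side of the threshold, 76 lost and 28 gained a call, and 0 called values changed sign, while 62 values that were uncalled in both fits did, among heat changes only hsp-3 in N2 (-0.01 with all 17 count columns). Leaving out 1 library leaves 1 in its group. The calls for heat in each strain and for daf-16 against N2 at both temperatures depended on which library was left out. Those of the other comparisons did not, and the share of all genes called in these fits was not computed. The ratios then ranged from 6.20 to 6.74 (hsp-70 to hsp-1), -2.24 to -2.08 (F44E5.4 to hsp-70), 0.17 to 0.19 (hsp-90 to hsp-1), 0.55 to 0.59 (hsp-110 to hsp-1) and 1.17 to 1.38 (hsp-4 to hsp-3).

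With all 17 count columns by header name, 0 genes were called for heat in any strain and 0 for daf-16 against N2 at either temperature, and the ratio changes were 3.06, -0.80, 0.09, 0.26 and 0.65 (adjusted p 0.111 to 0.197). In that fit ddl-2 in N2 was at -0.01 and pqm-1 in the pqm-1 strain at -0.11, from values of 0.41 and 0.85. Without a filter, 2 genes were called for pqm-1 against N2 at 20 °C and 2 after heat, 3 and 6 for daf-16, 4 for the heat response of daf-16 minus N2 and 2 for pqm-1 minus daf-16. Each count includes both rows of the F44E5.4 pair, and the share of all genes was not computed. For daf-16 after heat this fit gave the F44E5.4 row 2.30 with an adjusted p of 4.56e-109. Its heated replicates lay 4.14-fold apart in N2 and 4.9-fold in daf-16, so such p-values do not measure the spread between replicates and these calls carry no weight. For daf-16 at 20 °C, 2 were called with only the groups compared (the F44E5.4 pair in place of hsp-3) and 0 with unmatched rows kept. For daf-16 after heat 0 were called with relative log expression factors, library size only, only the groups compared or unmatched rows kept. The cause was not tested.

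Whether same-numbered libraries were handled together cannot be told from these data. Over all genes tested, replicate differences of the 6 groups correlated between -0.242 and 0.216, with 1 of 15 pairs over 0.1. That pair was heated N2 with heated daf-16. In both groups replicate 2 was the higher for hsp-70, the F44E5.4 row, hsp-1, hsp-110, hsp-90 and hsp-4, but not for hsp-3 and hsp-60. The share of all genes that did so was not computed. Between same-numbered heated libraries, daf-16 exceeded N2 by 2.31 and 2.29-fold for hsp-70 and by 4.8 and 4.06-fold for the F44E5.4 row, which is not a paired test. The replicate block changed the call of hsp-60 in daf-16, leaving 7 genes called there and 8 in N2 and pqm-1. The planned hsp-6 to hsp-60 ratio was not run. At 20 °C hsp-70 had 17 to 26 counts a library and an SE of 1.41 for daf-16 against N2. The fit gives each gene 1 dispersion over the 6 groups, so the spread of the heated replicates also enters SEs and intervals at 20 °C. How much of that SE comes from it was not tested.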

Other observations

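The F44E5.4 row stood higher relative to hsp-70 in both mutants than in N2, before and after heat. Per coding base it was 445.7 and 455.1% of hsp-70 in N2 at 20 °C, 697.8 and 575.1% in pqm-1 and 702.4 and 695.6% in daf-16. These percentages are imprecise, since hsp-70 had 17 to 26 counts a library at 20 °C. After heat the F44E5.4 row, which appears to count 2 genes, was 98.5 and 82.4% in N2, 145.9 and 124.6% in pqm-1 and 204.7 and 145.9% in daf-16. The N2 values lay below those of either mutant at both temperatures. This was noticed after the values were seen and both mutants share the N2 libraries. With 2 libraries against 2 an exact permutation test cannot go below p = 0.333, so none was made.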
